A study of Mus musculus with 3 samples.

Results

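Iron and heme handling was followed through 10 genes, taken by their symbols from the 19087 genes on the arrays. They are Fth1, Trf, Tfrc, Slc11a1, Slc11a2, Hmox1, Blvrb, Slc40a1, Cp and Hfe, and all 10 were measured, through 22 probes. The study compared lung macrophages (lung Mϕ), lung dendritic cells (lung DC) and peripheral blood monocytes (PBMo) sorted from 32 untreated wild-type C57BL/6N mice of both sexes, 6 to 9 weeks old. RNA of 4 mice was pooled, which gave 8 pools per cell type, and 12 two-colour hybridizations with balanced dyes joined the 3 cell types in a ring, 4 per comparison. Lung Mϕ were CD11c-positive cells of high autofluorescence and lung DC CD11c-positive cells of low autofluorescence, both from perfused lung digested with collagenase, whereas PBMo were CD11b- and CD115-positive cells of low side scatter from blood that was not digested. The labels call the macrophages alveolar, but they were sorted from homogenate of whole lung, which holds interstitial macrophages too. All cells came from C57BL/6N animals, and C57BL/6 mice are known to carry a loss-of-function allele of Slc11a1, so that its transcript says nothing of a working protein.

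Macrophages are the main cells that recover iron from heme. Heme oxygenase opens the heme ring and frees the iron, biliverdin reductase turns the resulting pigment into bilirubin, ferritin stores the iron, and ferroportin exports it to transferrin in the plasma. Cells take transferrin up again through the transferrin receptor, and proton-coupled transporters of the NRAMP family move the iron out of endosomes and phagosomes. In the lung, alveolar macrophages also meet inhaled iron and red cells that leak into the airspace. Much of this system is controlled at the level of translation and mRNA stability by iron regulatory proteins, so transcript levels need not follow protein levels.

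Each spot had 1 deposited log2 ratio per comparison, written here as Mϕ/PBMo, DC/PBMo and Mϕ/DC, and positive values mean more transcript in the first of the pair. Single fitted ratios allow no test and no error over pools. A gene is called higher or lower when its ratio, the mean over its probes, was above 1 or below -1, more than 2-fold, which is a description of size. The 3 ratios come from 1 model and share arrays, and Mϕ/PBMo minus DC/PBMo matched Mϕ/DC in all spots to within 1.07e-14. The spots were not in the order of the annotation. Of 32 possible layouts of the array, 1 placed a share of 0.907 of the variance between, and not within, the 5899 transcripts with more than 1 probe, while the next best placed 0.413, and the order chosen on 2950 of these transcripts gave 0.919 on the 2949 left out. The same order was found without the probes of the 10 genes. Between probes of the same transcript, the median SD of the ratio was 0.050 in Mϕ/PBMo, 0.050 in DC/PBMo and 0.0566 in Mϕ/DC, over 217 transcripts with at least 8 probes, a spread of spots and not of mice. Levels were not analysed here, and a ratio near 0 can come from equal levels or from a spot near background. In sorted populations, fewer cells of a type and less RNA per cell cannot be told apart.

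Lung Mϕ had more transcript of the ferritin heavy chain and of transferrin than PBMo and lung DC, and less of Slc11a1 and Hfe. In Mϕ/PBMo, 2 of the 10 genes were past 2-fold on the higher side, where 5.47% of all genes were, and 2 on the lower side, where 4.49% of all genes were. For DC/PBMo, 1 of the 10 was higher, Fth1, against 4.02% of all genes, and 0 were lower, against 1.09%. In Mϕ/DC, 2 were higher, against 2.74% of all genes, and 2 were lower, against 4.52%. At a 1.5-fold threshold the counts were 3 higher and 2 lower in Mϕ/PBMo (10.4% and 8.48% of all genes), 2 and 0 in DC/PBMo (7.86% and 3.8%) and 3 and 3 in Mϕ/DC (7.15% and 8.49%). At 4-fold they were 2 and 2 in Mϕ/PBMo (1.68% and 1.38%), 0 and 0 in DC/PBMo (1.09% and 0.157%) and 0 and 1 in Mϕ/DC (0.346% and 1.33%). The median log2 ratio of the 10 genes was 0.13 in Mϕ/PBMo, 0.02 in DC/PBMo and 0.16 in Mϕ/DC, where the medians of all genes were between 0.0022 and 0.0027. With the sign set aside, the median size of the ratio was 0.63, 0.33 and 0.74 for the 10 genes in these comparisons, and 0.13, 0.12 and 0.14 for all genes. The 10 genes were chosen with earlier results of these data known. All genes include those near background, as levels were not analysed, so this difference is a description only.

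**Figure D1:**
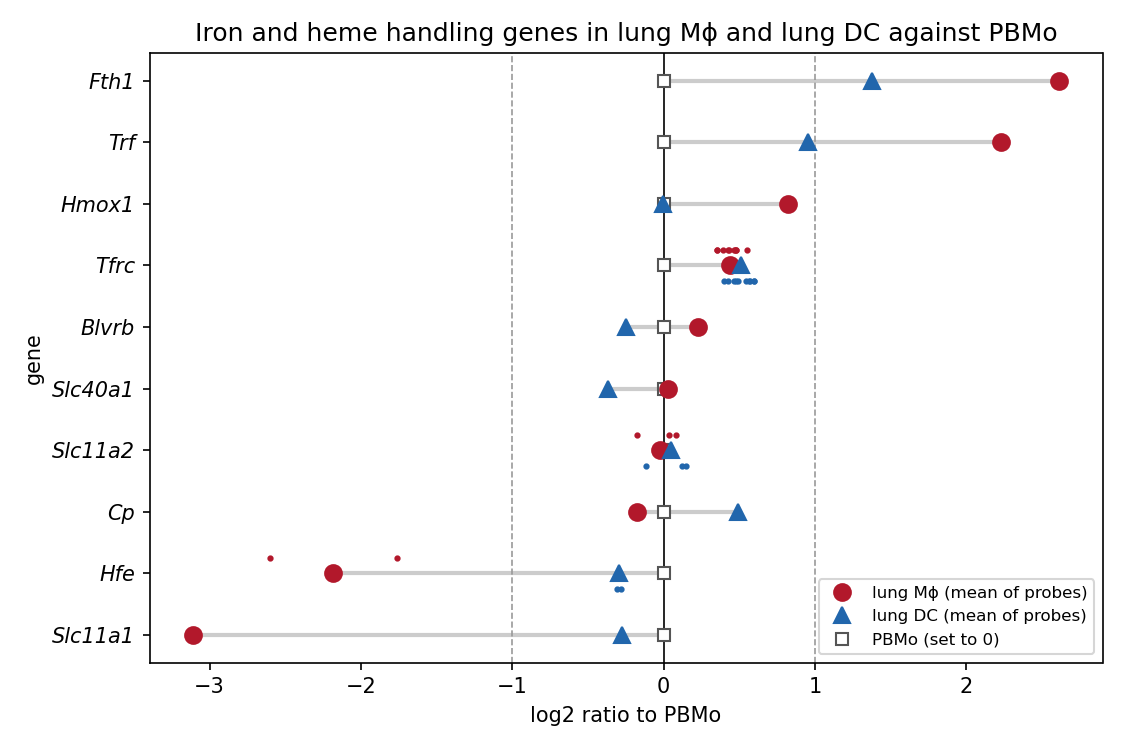
Log2 ratios to PBMo (horizontal axis) of the 10 genes, with lung Mϕ as red circles, lung DC as blue triangles and PBMo, set to 0, as open squares; large symbols are means over probes, small dots the single probes of the genes with more than 1, and dashed lines mark 2-fold. Fth1 and Trf lie above 2 in lung Mϕ and Hfe and Slc11a1 below -2, while in lung DC only Fth1 is past 2-fold.

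Fth1, the ferritin heavy chain that oxidises iron for storage, had the highest ratio of the 10 in Mϕ/PBMo and, after Trf, the next highest in Mϕ/DC. Its probe had a log2 ratio of 2.61 in Mϕ/PBMo, a 6.12-fold higher level, and 159 genes, 0.833% of all, had a higher one. In DC/PBMo the ratio was 1.38, or 2.60-fold, and in Mϕ/DC it was 1.24, or 2.36-fold. The order was thus lung Mϕ, lung DC, PBMo, each step past 2-fold. Fth1 has 1 probe, and the RefSeq gene table lists the pseudogenes Fth-ps2 and Fth-ps3, whose part in its signal was not tested.

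Trf, the plasma iron carrier transferrin, followed the same order. The log2 ratio was 2.23 in Mϕ/PBMo, 4.69-fold, with 252 genes or 1.32% of all above it. In DC/PBMo it was 0.96, or 1.94-fold, just inside the threshold, and in Mϕ/DC 1.27, or 2.41-fold. Among the 10 genes, Trf in DC/PBMo was the value nearest to 2-fold. Markers of alveolar macrophages had the same direction. All 20 of these markers measured were past 2-fold in Mϕ/PBMo, with a median of 4.07, and 16 of the 20 in DC/PBMo, with a median of 2.27. The log2 ratio in lung DC was 0.527 of that in lung Mϕ for Fth1 and 0.430 for Trf, against a median of 0.570 for the alveolar macrophage markers, which ranged between 0.116 and 0.862. The part of macrophage RNA in the values of lung DC was not tested, and a quotient of log2 ratios does not measure it.

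Slc11a1, or NRAMP1, which pumps iron and manganese out of the phagosome, was the gene of the 10 that lay lowest in lung Mϕ. Its log2 ratio was -3.11 in Mϕ/PBMo, a level 8.63-fold lower, and 77 genes, 0.403% of all, had a lower one. Against lung DC, lung Mϕ had -2.83, or 7.12-fold lower. In DC/PBMo the ratio was -0.28, within 2-fold. Lung Mϕ thus stood apart from both other cell types, which lay within 2-fold of each other. Hfe, the MHC class I-like protein that binds the transferrin receptor and is mutated in human hemochromatosis, had the same order of PBMo, lung DC, lung Mϕ. Its 2 probes, which belong to different transcript records, had -2.60 and -1.76 in Mϕ/PBMo, with a mean of -2.18 or 4.54-fold lower. In Mϕ/DC they had -2.32 and -1.45, with a mean of -1.89 or 3.70-fold lower, and in DC/PBMo -0.28 and -0.31. Both probes of Hfe were past 2-fold in each comparison with lung Mϕ, and they differed by less than 1 log2 unit from each other.

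**Figure D2:**
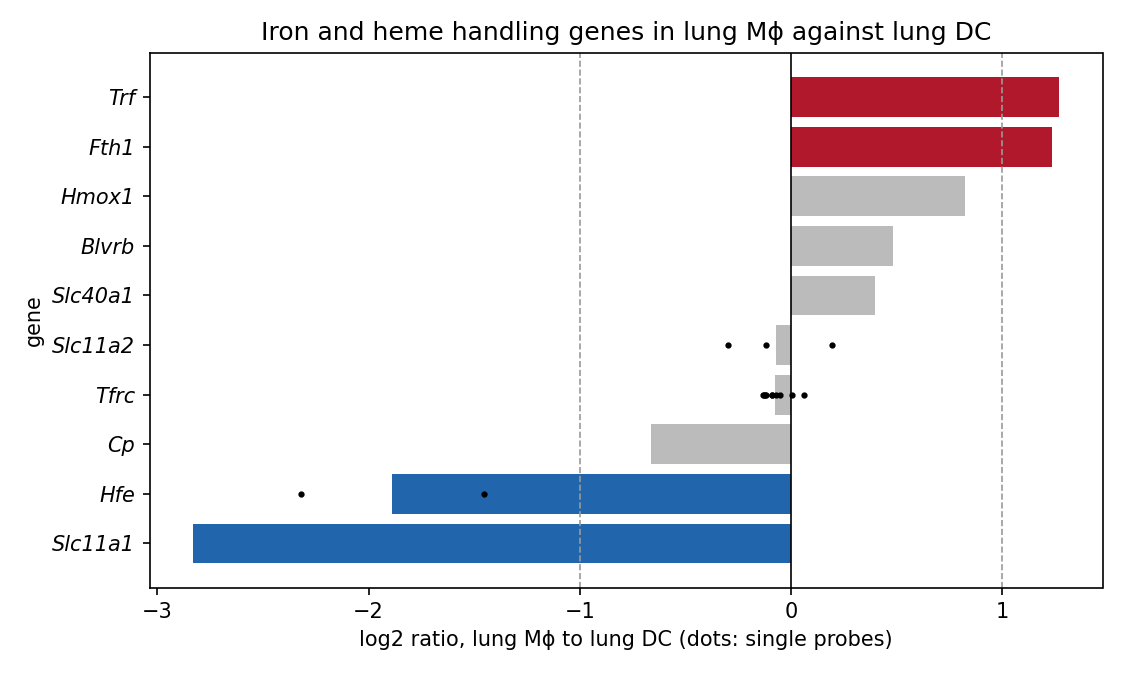
Log2 ratios of lung Mϕ to lung DC (horizontal axis) for the 10 genes, with the mean over probes as bars from 0 and single probes as black dots where there are several; red bars are more than 2-fold higher in lung Mϕ, blue bars more than 2-fold lower, grey bars within 2-fold, and dashed lines mark 2-fold. Trf and Fth1 reach 1.27 and 1.24, and Slc11a1 and Hfe reach -2.83 and -1.89.

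The bases before the start sites of Fth1, Hfe and Slc11a1 are shown, from RefSeq windows of GRCm38.p6, since of the 4 genes past 2-fold in lung Mϕ these 3 had a window. Windows of 250 bases before and 50 after a start were held for 6 of the 10 genes (Slc11a1, Cp, Blvrb, Hfe, Tfrc and Fth1), 10 windows in all, among 32851 windows of all genes. Each line gives the 250 bases before the start, 5′ to 3′ on the strand of the gene. Capitals mark the GC box GGGCGG on either strand in Fth1 and the Maf recognition element on either strand in Hfe. In Slc11a1 they mark TGANNNNGC, a looser form of the antioxidant response element TGACNNNGC. Fth1 has another start in the table, and the one shown, at chr19:9982396-9982645 on the plus strand, is the one with GC boxes. The Hfe bases lie at chr13:23710855-23711104 on the minus strand and those of Slc11a1 at chr1:74374953-74375202 on the plus strand.
Fth1: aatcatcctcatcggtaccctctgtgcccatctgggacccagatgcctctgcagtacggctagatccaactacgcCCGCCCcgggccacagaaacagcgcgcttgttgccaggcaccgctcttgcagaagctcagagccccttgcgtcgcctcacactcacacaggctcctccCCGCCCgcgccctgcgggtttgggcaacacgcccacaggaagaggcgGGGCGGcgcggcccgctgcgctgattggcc
Hfe: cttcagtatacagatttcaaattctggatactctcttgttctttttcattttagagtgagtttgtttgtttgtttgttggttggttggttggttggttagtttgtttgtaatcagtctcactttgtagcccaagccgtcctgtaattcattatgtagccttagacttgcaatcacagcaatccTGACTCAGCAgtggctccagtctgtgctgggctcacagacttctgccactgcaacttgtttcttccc
Slc11a1: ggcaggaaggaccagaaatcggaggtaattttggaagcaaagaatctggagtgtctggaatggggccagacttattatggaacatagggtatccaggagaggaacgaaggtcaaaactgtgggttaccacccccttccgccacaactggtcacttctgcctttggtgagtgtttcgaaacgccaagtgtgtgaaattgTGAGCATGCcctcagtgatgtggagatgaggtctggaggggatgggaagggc

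The Fth1 window held 3 GC boxes in the 250 bases, which were 66.8% G and C, against 42.0% in Hfe and 51.2% in Slc11a1. A GC box was present in 35.7% of all windows. The match in Hfe, TGACTCAGCA, begins at base -67 from the start and is the Maf recognition element read on the other strand, the sequence to which heterodimers of small Maf proteins with BACH1 or NRF2 bind. This motif was present in 0.423% of all windows and in 1 of the 10 windows of the iron and heme genes. At the same place Hfe also matched the antioxidant response element TGACNNNGC, found in 12.4% of all windows, its looser form, and the AP-1 site TGANTCA, found in 7.81%, since these motifs overlap. The looser form TGANNNNGC, which Slc11a1 had at base -52 without matching TGACNNNGC, was present in 41.3% of all windows and also in Blvrb. GC boxes were also found in Blvrb and Tfrc. The other motifs searched on both strands were the E-box CACGTG, in 7.15% of all windows, the hypoxia response core ACGTG, in 19.6%, the TATA box TATAAA, in 13.6%, and the PU.1 sites GAGGAAGT and AGAGGAAG, in 3.20% and 4.55%. The loop of the iron-responsive element was searched on the strand of the gene and was in 10.5%. In the windows of the iron and heme genes, the E-box, the PU.1 sites and the iron-responsive loop had 0 matches, which says only that these letters are not in these windows. Matches of letters are not binding sites, and binding was not measured.

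Of the enzymes of heme breakdown, Hmox1 and Blvrb were within 2-fold. Hmox1, the inducible heme oxygenase, had a log2 ratio of 0.82 in Mϕ/PBMo, or 1.77-fold, and 0.83 in Mϕ/DC. In DC/PBMo it was -0.0052, so that the level of lung DC and PBMo was nearly the same in this probe and lung Mϕ stood above both. Blvrb, biliverdin reductase B, had 0.23 in Mϕ/PBMo, -0.25 in DC/PBMo and 0.48 in Mϕ/DC. Of all genes, 7.07% had a higher ratio than Hmox1 between lung Mϕ and PBMo, and 21.3% a higher one than Blvrb.

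Among the 10 genes, Tfrc and Slc11a2, which also serve iron uptake, were within 2-fold. Tfrc, the transferrin receptor, had 10 spots, all of which were above 0 against PBMo. They lay between 0.35 and 0.55 in Mϕ/PBMo, with a mean of 0.44 and an SD of 0.0629 between spots, and between 0.40 and 0.60 in DC/PBMo, with a mean of 0.51 and an SD of 0.0711. Tfrc was thus 1.36-fold higher in lung Mϕ and 1.43-fold higher in lung DC than PBMo. The mean in Mϕ/DC was -0.07, with single spots between -0.13 and 0.06 and an SD of 0.0632 between spots. Dividing cells are known to carry more of this receptor, and genes of dividing cells had the same direction. Of 12 of them, 8 were higher in Mϕ/PBMo and 8 in DC/PBMo, with medians of 1.60 and 1.34, and 0 of 12 were past 2-fold in Mϕ/DC. Mki67, a marker of dividing cells, had 2.39 in Mϕ/PBMo and 2.54 in DC/PBMo, and Birc5, or survivin, had 2.64 and 2.58. Their part in the Tfrc ratio was not tested. Slc11a2, or DMT1, which moves iron out of the endosome after its release from transferrin, had 3 probes that lay on both sides of 0 in each comparison. Its mean was -0.02 in Mϕ/PBMo, 0.05 in DC/PBMo and -0.07 in Mϕ/DC, which are smaller than the SDs between its probes of 0.138, 0.144 and 0.25. The paralogues Slc11a1 and Slc11a2 therefore differed in lung Mϕ, with -3.11 against PBMo for Slc11a1 and -0.02 for Slc11a2.

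On the export side, Slc40a1, or ferroportin, the only known cellular iron exporter of mammals, had 0.03 in Mϕ/PBMo, -0.37 in DC/PBMo and 0.40 in Mϕ/DC. Cp, ceruloplasmin, a copper ferroxidase that helps load exported iron onto transferrin, had -0.17 in Mϕ/PBMo, 0.49 in DC/PBMo and -0.66 in Mϕ/DC. Cp and Slc40a1 were thus ordered the other way round between lung Mϕ and lung DC, Cp being lower in lung Mϕ and Slc40a1 higher, each by less than 2-fold. With 1 probe each, their spread between spots is unknown.

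Across the 3 cell types, the distance between the highest and the lowest level was 8.63-fold for Slc11a1, 6.12-fold for Fth1, 4.69-fold for Trf and 4.54-fold for Hfe, and between 1.05-fold (Slc11a2) and 1.77-fold (Hmox1) for the other 6 genes. Lung Mϕ were highest in 5 genes (Fth1, Trf, Hmox1, Blvrb and Slc40a1), lung DC in 3 (Tfrc, Cp and Slc11a2) and PBMo in 2 (Slc11a1 and Hfe). In Slc11a2, in Hmox1 between PBMo and lung DC and in Slc40a1 between lung Mϕ and PBMo, the neighbours in this order were no further apart than the median SD between spots of 1 transcript or, for Slc11a2, than its own probes. Patterns like those of the 3 genes furthest from 0 were sought among all genes by the Euclidean distance over the ratios of lung Mϕ and of lung DC to PBMo, which covers 2 values per gene. Nearest to Slc11a1 lay Ms4a4b, at a distance of 0.118, Cnn2, at 0.212, and Apoc2, at 0.233. Nearest to Fth1 lay Tns1, at 0.0446, Ffar2, at 0.0477, and Asns, at 0.0623, and nearest to Trf lay Inhba, at 0.0401, Tusc3, at 0.0502, and Zfand2a, at 0.0542.

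**Figure D3:**
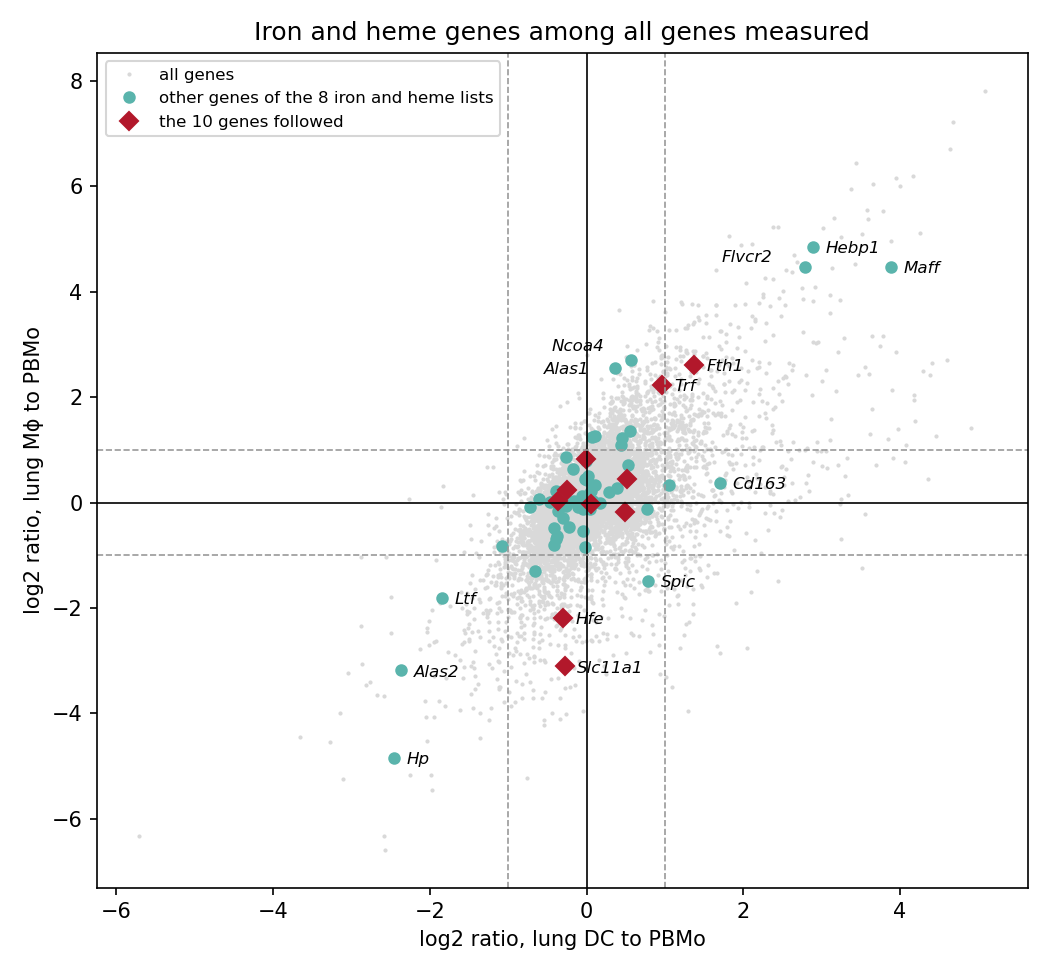
Log2 ratio of lung Mϕ to PBMo (vertical axis) against that of lung DC to PBMo (horizontal axis) for all 19087 genes (grey), the other genes of 8 lists of iron and heme genes (green circles) and the 10 genes followed (red diamonds), with 2-fold as dashed lines; both ratios share PBMo. Slc11a1 and Hfe lie straight below 0 at -3.11 and -2.18, whereas Fth1 and Trf lie to the upper right.

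The wider system was described with 8 lists of 77 genes, 72 of which were measured and 62 of which were not among the 10. The lists were chosen with earlier results of these data known, so their counts and shares are a description and not a test. Of these 62, 10 were higher and 5 lower in Mϕ/PBMo, 5 higher and 4 lower in DC/PBMo, and 7 higher and 3 lower in Mϕ/DC. Their medians were 0.03, -0.01 and 0.16. In Mϕ/PBMo, 16.1% of the 62 were higher and 8.06% lower, against 5.47% and 4.49% of all genes. In DC/PBMo the shares were 8.06% and 6.45%, against 4.02% and 1.09%, and in Mϕ/DC 11.3% and 4.84%, against 2.74% and 4.52%. The same shares of all genes apply to the counts of each single list below.

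Of 6 genes of iron storage and its turnover, 3 were higher and 0 lower in Mϕ/PBMo, and likewise 3 and 0 in Mϕ/DC, namely Fth1, Ftl1 and Ncoa4. The others, Ftmt, Pcbp1 and Pcbp2, were within 2-fold and had -0.12, -0.07 and -0.13 in Mϕ/PBMo. Ftl1, the ferritin light chain, had 1.24 in Mϕ/PBMo, 0.07 in DC/PBMo and 1.18 in Mϕ/DC. Ncoa4, the receptor that delivers ferritin to lysosomes for breakdown, had 2.71 in Mϕ/PBMo, 0.56 in DC/PBMo and 2.15 in Mϕ/DC. The log2 ratio in lung DC was 0.0551 of that in lung Mϕ for Ftl1 and 0.208 for Ncoa4, lower shares than the 0.527 of Fth1. The heavy chain was therefore past 2-fold in DC/PBMo and the light chain was not.

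In heme synthesis, the enzymes of the first step were the ones past 2-fold. Alas1, the enzyme of that step outside red cells, had 2.55 in Mϕ/PBMo, 0.37 in DC/PBMo and 2.19 in Mϕ/DC. Alas2, its red cell form, had -3.18 in Mϕ/PBMo and -2.37 in DC/PBMo. Globin genes had the same direction, Hbb-bt having -4.55 in Mϕ/PBMo and -3.28 in DC/PBMo, and Hba-a1 -3.66 and -2.67. Of 13 red cell genes measured, Alas2 included, 5 were lower in Mϕ/PBMo, 5 in DC/PBMo and 0 were higher. The part of red cell RNA in the blood sample was not tested. Of the 8 synthesis genes measured, the other 6 (Alad, Uros, Urod, Cpox, Ppox and Fech) were within 2-fold in all 3 comparisons. In heme breakdown, Blvra, biliverdin reductase A, had 1.26 in Mϕ/PBMo, 0.11 in DC/PBMo and 1.15 in Mϕ/DC, and it was the only 1 of the 4 genes past 2-fold. Hmox2, the constitutive heme oxygenase, had 0.0040 in Mϕ/PBMo and -0.47 in DC/PBMo.

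Genes that bind or carry heme and haemoglobin had the widest range. Hebp1, a heme-binding protein, had 4.85 in Mϕ/PBMo and 2.89 in DC/PBMo, and Flvcr2, a membrane transporter reported to carry heme, had 4.48 and 2.79. In Mϕ/DC they had 1.95 and 1.69. Hp, haptoglobin, which captures free haemoglobin, had -4.84 in Mϕ/PBMo, -2.46 in DC/PBMo and -2.39 in Mϕ/DC. Cd163, the receptor for the complex of haptoglobin and haemoglobin, was higher in lung DC, with 1.70 against PBMo, while lung Mϕ had 0.38 against PBMo and -1.32 against lung DC. Of the 10 genes of this list, 3 were higher in Mϕ/PBMo, the third being the porphyrin-exporting pump Abcg2 at 1.10. The 2 lower ones were Hp and Flvcr1, reported to export heme, at -1.29. Slc48a1, or HRG1, which brings heme out of the phagolysosome, had 0.79 in Mϕ/PBMo and 0.79 in Mϕ/DC.

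Of 16 genes of iron uptake measured, Slc39a14, or ZIP14, an importer of iron that is not bound to transferrin, had 1.35 in Mϕ/PBMo and 0.55 in DC/PBMo, and Trf was the only other gene higher in lung Mϕ. Ltf, lactoferrin, an iron-binding protein of neutrophil granules, had -1.81 in Mϕ/PBMo and -1.84 in DC/PBMo, and Lcn2, which binds bacterial iron chelators, had -0.83 and -1.07. Markers of neutrophils had the same direction. Of 15, both of these genes included, 10 were lower in Mϕ/PBMo and 9 in DC/PBMo, with S100a9 at -5.24 and -3.11, while Elane, a protease of early neutrophils, had -0.08 and -0.15. Neutrophils also express Slc11a1, and the part of neutrophil RNA in its ratios was not tested. Of 4 genes of export measured, 0 were past 2-fold in any comparison. Between 1.09% and 5.47% of all genes were, by comparison and direction, so a count of 0 in so short a list says little.

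**Figure D4:**
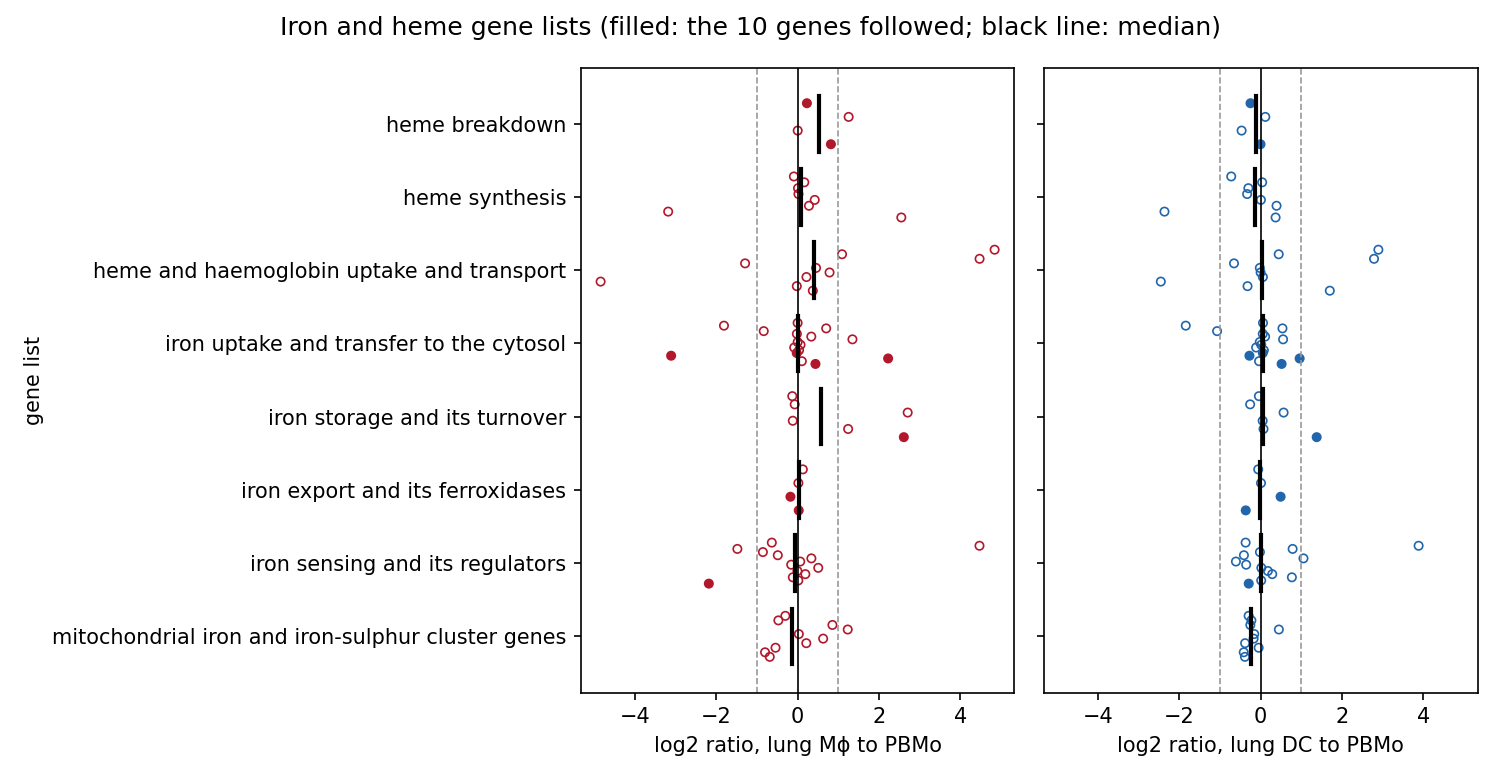
Log2 ratios to PBMo (horizontal axes) of the genes of 8 iron and heme lists in lung Mϕ (left, red) and lung DC (right, blue), each circle a gene, filled for the 10 genes followed, with the median of the list as a black line and 2-fold as dashed lines. The storage list has 3 genes above 1 on the left and 1 on the right, and the export list has 0 in both. Of all genes, 5.47% were above 1 in lung Mϕ and 4.02% in lung DC.

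Among 14 sensors and regulators, Maff, a small Maf protein, was the highest against PBMo, with 4.48 in Mϕ/PBMo and 3.88 in DC/PBMo. Nfe2l2, or NRF2, which partners small Maf proteins and induces Hmox1 and ferritin, had 0.34 in Mϕ/PBMo, 1.05 in DC/PBMo and -0.71 in Mϕ/DC. Bach1, the heme-sensing repressor of the same sites, had -0.85 in Mϕ/PBMo and -0.02 in DC/PBMo. Spic, a transcription factor of the iron-recycling macrophages of the spleen that heme induces, had -1.48 in Mϕ/PBMo and -2.26 in Mϕ/DC, with 0.78 in DC/PBMo. The lung cells were digested with collagenase and PBMo were not, so that preparation and cell type cannot be told apart in the comparisons with PBMo. Of 10 mitochondrial iron and iron-sulphur cluster genes measured, 1 was higher in Mϕ/PBMo, the porphyrin transporter Abcb6 at 1.23, and 1 was higher in Mϕ/DC, Cisd1 at 1.11, an iron-sulphur protein of the outer membrane.

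The markers of the sorted types mostly had the direction of their labels, and those of other cells differed as well. All 14 blood monocyte markers were lower in Mϕ/PBMo and 12 of the 14 in Mϕ/DC, where 1 was higher, and 8 were lower in DC/PBMo. Of 19 dendritic cell markers, 13 were higher in DC/PBMo. Slc11a1 and Hfe were lower in Mϕ/PBMo and Mϕ/DC, as most of these monocyte markers were. NK cell markers were lower there too, for 10 of 11 genes in Mϕ/PBMo and 11 of 11 in Mϕ/DC, with Klra7 at -3.95 and -5.25. Of the same 11 genes, 6 were higher in DC/PBMo, with a median of 1.08. Of 8 T cell markers 5 were higher in DC/PBMo, with Cd8b1 at 3.51. Of 8 platelet markers 7 were lower in Mϕ/PBMo and 4 in DC/PBMo, and of 7 B cell markers 3 were lower in Mϕ/PBMo. Of 9 markers of lung epithelium 4 were higher in Mϕ/PBMo and 5 in DC/PBMo, Sftpc, a surfactant protein, having 3.16 and 3.65. The part of these cells in the iron and heme ratios was not tested.

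**Figure D5:**
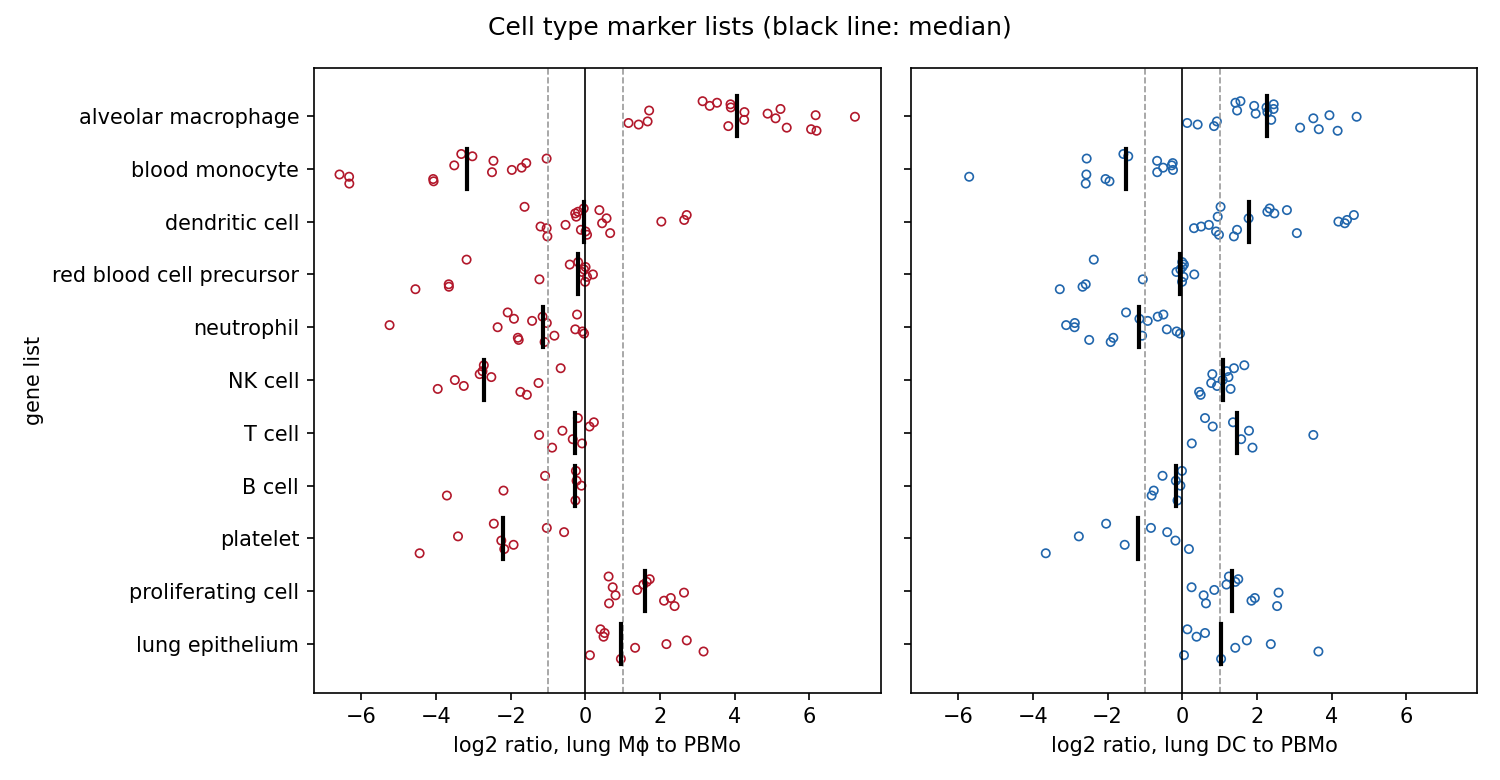
Log2 ratios to PBMo (horizontal axes) of cell type marker genes in lung Mϕ (left, red) and lung DC (right, blue), each circle a gene, with the median of each list as a black line and 2-fold as dashed lines. The alveolar macrophage markers have medians of 4.07 in lung Mϕ (left) and 2.27 in lung DC (right), and the NK cell markers have -2.72 on the left and 1.08 on the right.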

How the data were processed

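RNA of 3 sorted cell types was compared on two-colour oligonucleotide arrays after linear amplification. The authors subtracted local background (Edwards' method, plus a fixed offset that shrinks ratios of dim spots), applied LOESS, averaged and fitted 1 limma model to all arrays; no version of limma is given in the sources used here. The deposited values are the log2 ratios of that model, 1 per spot and comparison, for 45220 spots, with no missing value. They were used as deposited. Signals over background were not analysed here, and the number of arrays limits the precision.

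Spots were matched to the annotation through the layout, of 32, in which probes of a transcript agree best. Of 33709 listed probes, 33653 carried 1 symbol. The 56 with several symbols and the 11511 unlisted spots were left out. Symbols were checked by gene number for 33517 probes, of which 0 changed. A gene is the mean of its probes. With 1 fitted value per comparison no test, false-discovery rate or leave-out of a pool was possible, and calls are counts past 2-fold. The 10 genes and the lists were chosen with earlier results of these data known. Named genes are the 10, up to 4 per iron or heme list with the largest ratios past 2-fold, Ftl1, Alas2, Hmox2, Cd163, Slc48a1 and Spic, up to 2 per marker list with the largest ratios, and the 3 nearest genes of the 3 furthest from 0. Other genes named with values in the text were named after their values were seen, as were those of zinc and copper. Simulated data in each of the 32 layouts gave the right layout 32 times, and 199 of 199 genes simulated as changed were called. These genes were changed by about 4-fold with little noise between spots. Their calling was thus near certain and says nothing of genes near 2-fold. Alternatives were the median, the largest probe or the leading transcript in place of the mean, centring, 1.5-fold and 4-fold thresholds, every probe past the threshold, and the layout chosen without the 10 genes. Python 3.11.15, numpy 2.4.6, pandas 2.3.3 and matplotlib 3.10.9 were used.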

Additional observations from a re-analysis of the deposited data

How the results depend on the processing

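No paired analysis was possible because each comparison holds 1 fitted value per spot and no replicates, and for the same reason no pool could be left out. Of 48 counts of the 10 genes past the threshold under an alternative, 44 stayed within 1.5 times of the count given. With a 1.5-fold threshold, 2 genes were higher in lung DC than PBMo, against 7.86% of all genes. With a 4-fold threshold, 0 were higher in DC/PBMo (1.09% of all genes) and 0 in Mϕ/DC (0.346%), and 1 was lower in Mϕ/DC (1.33%). Of 150 ratios of the 10 genes under the median of probes, the probe with the largest ratios, the transcript with the most probes, centring and the layout found without their own probes, 148 moved by less than the SD between probes (for a gene with 1 probe, the median SD over transcripts), and 0 of those past 2-fold changed sign. Much of this was fixed in advance. Only Slc11a2, Tfrc and Hfe have more than 1 probe, so for the others the settings on probes and transcripts return the same value. The layout found without the 10 genes was the same layout, and centring moved ratios by 0.0051 or less. These settings therefore say little of how stable the ratios of Fth1, Trf and Slc11a1 are. With the probe with the largest ratios, Slc11a2 had -0.18 in Mϕ/PBMo and Tfrc 0.60 in DC/PBMo. Depth, signal over background and the spread between pools could not be assessed, which limits each value most where a gene has 1 probe.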

Other observations

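Genes that handle other metals were looked at beside those of iron, in a list of 25 genes of metallothioneins and of zinc and copper transport that was chosen after the values of the iron genes had been seen. Mt2 and Mt1, metallothioneins that bind zinc and copper, were the highest of the list in Mϕ/PBMo and in DC/PBMo. Mt2 had 5.12 (log2) in Mϕ/PBMo, 4.26 in DC/PBMo and 0.86 in Mϕ/DC. Mt1, over 11 spots, had 3.55 in Mϕ/PBMo, 2.48 in DC/PBMo and 1.07 in Mϕ/DC. The third gene of the 25 past 2-fold on the higher side of Mϕ/PBMo was Slc39a10, a zinc importer, at 1.05, and 0 were lower. In DC/PBMo, 2 were higher, Mt1 and Mt2, and 0 were lower. In Mϕ/DC, 2 were higher, Mt1 and Slc39a10, and 2 were lower, the zinc importer Slc39a4 at -1.59 and the copper pump Atp7b at -1.28. Slc31a1, the main copper importer, had -0.99 in Mϕ/PBMo and -0.79 in DC/PBMo. Of the 25 genes, metallothioneins included, 22 were within 2-fold in Mϕ/PBMo and 23 in DC/PBMo. Most genes on the arrays were within 2-fold too. Of all genes, 5.47% were higher and 4.49% lower in Mϕ/PBMo, and 4.02% and 1.09% in DC/PBMo. In Mϕ/DC the shares of all genes were 2.74% and 4.52%.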
